A study of Mus musculus with 7 samples.

Results

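The glycolysis and hypoxia response genes comprised 36 genes chosen by function: a glucose transporter, the enzymes from hexokinase to lactate dehydrogenase, a lactate exporter, enzymes that set the rate of glycolysis, the oxygen-regulated transcription factor subunit Hif1a with its hydroxylases, and 12 genes known as hypoxia targets. They were taken by gene symbol from a table of 26130 genes. All 36 were in the table, and all 36 were among the 13665 genes that passed the filter on low counts. No measured value entered the choice of members, but the list was drawn up with earlier results of these data known.

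Glycolysis splits glucose into pyruvate in the cytosol and yields ATP without oxygen, and lactate dehydrogenase and a proton-coupled exporter then dispose of the pyruvate as lactate. HIF-1, a dimer of HIF-1α and ARNT, raises transcription of most of these genes. HIF prolyl hydroxylases, which need oxygen and iron, mark HIF-1α for degradation, and in macrophages LPS is known to raise Hif1a transcription and glycolysis even where oxygen is plentiful.

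RNA was sequenced from lung myeloid cells of Fth1-mScarlet x Lyz2GFP mice, which carry a fluorescent reporter of ferritin heavy chain and GFP at the lysozyme locus. Cells were sorted as positive for GFP, CD11b and Ly6C and negative for Ly6G, a gate for monocytes and their progeny, and then by low or high mScarlet. Fth1-low cells came from mice that received no treatment (n = 2 libraries). Fth1-low cells (n = 2) and Fth1-high cells (n = 3) also came from mice whose tracheas had received 50 µl with 20 µg of LPS (E. coli 0111:B4) and whose lungs were taken 3 days later. Fth1-high cells of untreated mice were not analysed here, so any difference of LPS Fth1-high cells from untreated ones mixes treatment and gate. Neither the age of the mice nor whether a library came from 1 mouse or a pool is given in the sources used here. In bulk samples such as these, fewer cells of a type and less RNA per cell cannot be told apart.

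Total counts ranged from 10459703 to 27997007 in 6 libraries. LPS Fth1-low replicate 1 stood apart with 637787, so that 3 counts there equalled 5.02 CPM (the count scaled to a common library size, with TMM factors), and ribosomal RNA took 18.7% of its counts, against 0.631% to 8.33% elsewhere. Lyz2, Itgam, which encodes CD11b, and the Ly6c genes were present in every library, and Ly6g reached at most 0.0932 CPM. Of 8 genes that mark the sorted myeloid cells, 1 was called higher between the LPS gates, the macrophage gene Cd68 (1.06 ± 0.21, adjusted p = 0.0144, lost without LPS Fth1-high replicate 2 or 3, at 0.0702 and 0.063), and 1 lower, Ccr2, the chemokine receptor of classical monocytes. Ccr2 was 1390 and 1252 CPM in untreated, 894 and 1545 in LPS Fth1-low and 360.5, 148 and 169.6 in LPS Fth1-high libraries, a gate difference of -2.44 ± 0.39 (adjusted p = 0.00568). It thus moved with the gate that most results below compare. The summed level of 9 alveolar macrophage markers was 1749 and 1953 CPM in untreated, 3318 and 5926 in LPS Fth1-low and 487 to 1893 in LPS Fth1-high libraries, most of it Chil3, and 2 of the 9 were called lower between the LPS gates. Siglecf, a defining gene of those cells, reached at most 5.02 CPM, and Fabp4 was at 0 in LPS Fth1-low replicate 1. That of 8 dendritic cell markers was 121 and 128, 84.8 and 93.8, and 15.3 to 23.5 CPM, with 3 of the 8 called lower between the LPS gates. Of all tested genes 3.68% were called higher and 4.57% lower between these gates. Markers of lung epithelium summed to 819 CPM in untreated replicate 1 and to 5.03 to 130.0 in the other libraries. Over the 7 libraries the sums were 332 to 594 CPM for neutrophil markers, 5.73 to 87.1 for B cells, 3.25 to 36.3 for T and NK cells, 45.6 to 307 for endothelium, 5.87 to 127 for fibroblasts, 1.03 to 48.4 for erythroid cells and 3.32 to 15.5 for platelets, and 16.3 to 154 for proliferation genes. The part of Ccr2 and of these cell types in the results below was not tested.

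Most of the glycolytic pathway was higher in LPS Fth1-high than in LPS Fth1-low cells, with 11 of its 16 enzymes called, among them Pfkl, Aldoa, Tpi1 and Ldha. Of the 36 genes, 19 were higher and 2 lower than in LPS Fth1-low cells at a Benjamini-Hochberg adjusted p below 0.05 in edgeR's quasi-likelihood test, where 3.68% and 4.57% of all tested genes were called in those directions. The median log2 difference was 1.00 over the 36 genes and 0.04 over all tested genes. Between LPS Fth1-low and untreated Fth1-low cells only 5 of the 36 were called higher and 0 lower, against 2.99% and 0.629% of all tested genes, and the medians were 0.30 and -0.05. At an unadjusted p below 0.05 the counts there were 8 higher and 3 lower, against 7.81% and 5.58% of all tested genes, so that the lower count is near the background. The DESeq2 Wald test called 6 and 1 (4.57% and 1.38% of all tested genes) and limma-voom 4 and 0 (2.89% and 0.893%). LPS Fth1-high cells exceeded untreated Fth1-low cells in 25 of the 36 and fell below them in 2, against 12.4% and 11.9% of all tested genes, with medians of 1.32 and 0.03. The comparisons share libraries and are not independent of each other.

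Summed over the 36 genes, transcript levels were 4299 and 4042 CPM in the untreated libraries, 4200 and 5886 in LPS Fth1-low, and 11273, 11289 and 11571 in LPS Fth1-high. The LPS Fth1-high libraries lay close together and far above the other 4, which overlapped between the groups. The 16 glycolytic enzymes made up 8582 to 9028 CPM of the LPS Fth1-high sums and 2653 to 4309 CPM of the others.

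**Figure D1:**
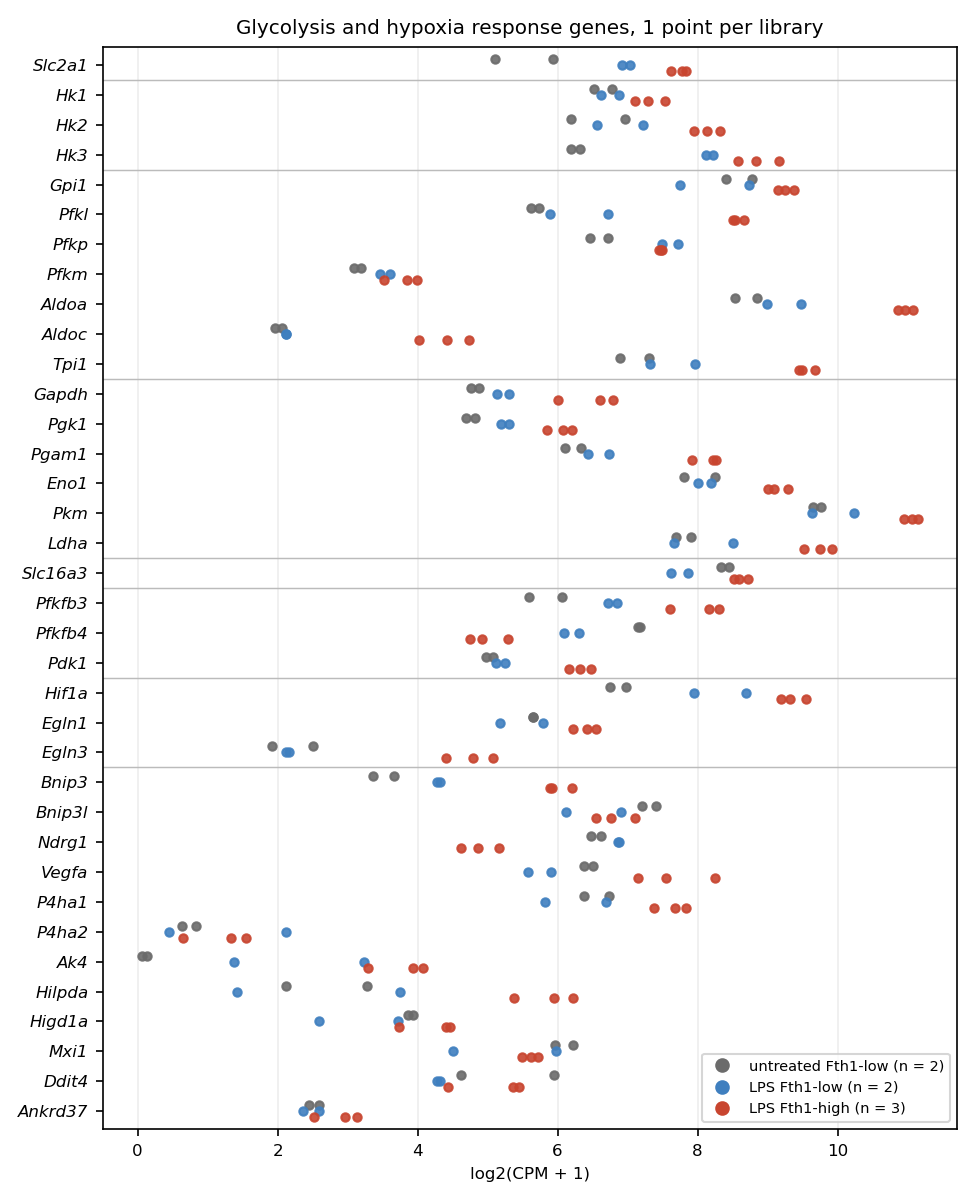
Level of each of the 36 genes as log2(CPM + 1), 1 point per library, with genes ordered by role from glucose uptake at the top to HIF targets at the bottom and groups in grey (untreated Fth1-low, n = 2), blue (LPS Fth1-low, n = 2) and red (LPS Fth1-high, n = 3). The red points lie to the right of all blue points for 28 genes and to the left of them for 3, Pfkp, Pfkfb4 and Ndrg1, where 24.2% and 17.1% of all tested genes do.

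The members' own order of levels can be read only per length of exon. It then depends on the annotated exon lengths, such as 2911 bases for Aldoa and 5001 for Pkm. Other lengths were not tested for this order. In LPS Fth1-high cells Aldoa was the highest, at 688 ± 50.6 CPM per kb (mean ± SD, n = 3), followed by Pkm at 426 ± 29.5, Tpi1 at 270.3 ± 23.0 and Ldha at 257 ± 34.3, and the last of these do not differ beyond their spread. In untreated Fth1-low cells Pkm, at 167 ± 9.08, and Aldoa, at 143 ± 22.0 (n = 2), led instead and lay about 1 SD apart. Ldha, at 66.8 ± 6.99, Slc16a3, at 62.9 ± 3.50, and Gpi1, at 60.0 ± 10.6, followed within their spread.

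Slc2a1 encodes GLUT1, the glucose transporter of activated leukocytes. Its level was 33.4 and 60.3 CPM in untreated Fth1-low, 121 and 130.0 in LPS Fth1-low, and 228, 196 and 217 in LPS Fth1-high cells. The 3 groups stood in that order without overlap. LPS Fth1-low exceeded untreated by a log2 difference of 1.43 ± 0.29 (SE, adjusted p = 0.0256), while the further 0.76 ± 0.26 between the LPS gates was not called (adjusted p = 0.124). The first of these calls ended when untreated replicate 1 was left out (1.05, adjusted p = 0.157), and when either library of LPS Fth1-low cells was (0.0778 for replicate 1 and 0.0947 for replicate 2).

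Slc16a3 encodes MCT4, the lactate exporter of glycolytic cells. It stood at 348 and 322 CPM in untreated Fth1-low, 196 and 232 in LPS Fth1-low, and 421, 366 and 384 in LPS Fth1-high cells. The LPS Fth1-low libraries were the lowest and the LPS Fth1-high libraries the highest, with no overlap. The gate difference was 0.86 ± 0.20 (adjusted p = 0.0275), and neither the difference of -0.64 ± 0.21 between the Fth1-low groups (adjusted p = 0.194) nor the 0.22 ± 0.19 between LPS Fth1-high and untreated (adjusted p = 0.444) was called. The call was lost without any 1 library other than LPS Fth1-low replicate 2, with adjusted p from 0.0532 without untreated replicate 1 to 0.0923 without LPS Fth1-high replicate 3, and in a fit of the LPS libraries alone (0.0587).

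Hexokinases trap glucose as glucose 6-phosphate. All 3 genes were called higher in LPS Fth1-high than in untreated cells, but they differed in the other comparisons. Against untreated cells Hk3 was higher by 2.63 ± 0.24 (adjusted p = 6.2e-05) and Hk2 by 1.53 ± 0.30 (adjusted p = 0.00471). The Hk2 call ended without untreated replicate 1 (1.18). Hk3, the hexokinase of myeloid cells, was 72.2 and 79.1 CPM in untreated Fth1-low, 276 and 298 in LPS Fth1-low, and 569, 457 and 381 in LPS Fth1-high cells. Every LPS library lay above every untreated one, and LPS Fth1-low exceeded untreated by 1.93 ± 0.25 (adjusted p = 0.00238), a call that no left-out library ended. The difference of 0.71 ± 0.22 between the LPS gates was not called (adjusted p = 0.0962), though it was by DESeq2's Wald test (0.0358).

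Hk2, the inducible hexokinase that binds mitochondria, was 72.2 and 124 CPM in untreated Fth1-low, 93.8 and 148 in LPS Fth1-low, and 319.6, 247 and 280.3 in LPS Fth1-high cells. The Fth1-low groups overlapped (0.34 ± 0.31, adjusted p = 0.733), and the LPS Fth1-high libraries lay above both. That gate difference of 1.18 ± 0.30 was called (adjusted p = 0.0404) but lost when any 1 of the 5 LPS libraries was left out, with adjusted p of 0.196 and 0.0595 without LPS Fth1-low replicate 1 or 2 and 0.0872, 0.0651 and 0.094 without LPS Fth1-high replicate 1, 2 or 3, and by limma-voom (0.0532). Hk1, the housekeeping form, ranged from 90.5 to 117 CPM in the Fth1-low libraries and from 137 to 185 in LPS Fth1-high, and its gate difference of 0.56 ± 0.22 was not called (adjusted p = 0.174). Its difference of 0.68 ± 0.21 between LPS Fth1-high and untreated cells was called (adjusted p = 0.0438), but not without untreated replicate 1 (adjusted p = 0.27) or 2 (0.108) or without LPS Fth1-high replicate 1 (0.119), 2 (0.114) or 3 (0.0622), nor without a filter on low counts (0.0601).

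Among the 7 genes from glucose 6-phosphate isomerase to triose phosphate isomerase, 4 were higher in LPS Fth1-high than in LPS Fth1-low cells, and 1, Pfkp, was higher in LPS Fth1-low than in untreated cells. Phosphofructokinase is the committed step of glycolysis and has liver (Pfkl), platelet (Pfkp) and muscle (Pfkm) isoforms. Pfkl was 52.3 and 48.0 CPM in untreated Fth1-low, 58.6 and 105 in LPS Fth1-low, and 370.2, 361 and 402 in LPS Fth1-high cells. No LPS Fth1-high library came near the Fth1-low ones, and the gate difference was 2.14 ± 0.26 (4.42-fold, adjusted p = 0.00135). Between the Fth1-low groups its 0.77 ± 0.27 was not called (adjusted p = 0.219). With a library left out that difference ranged from 0.20 to 1.09, the highest value without LPS Fth1-low replicate 1.

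Pfkp was higher in LPS cells of both gates than in untreated cells. It was 87.3 and 104 CPM in untreated Fth1-low, 179 and 209.6 in LPS Fth1-low, and 177, 174 and 179 in LPS Fth1-high cells. The untreated libraries were the low ones, and the LPS gates, though without overlap, differed by only -0.15 ± 0.19 (adjusted p = 0.718). The rise of 1.03 ± 0.21 in LPS Fth1-low over untreated cells (adjusted p = 0.0254) was lost without untreated replicate 1 (adjusted p = 0.242) or 2 (0.116), LPS Fth1-low replicate 2 (0.0703), and LPS Fth1-high replicate 2 (0.0585) or 3 (0.064), and with only the Fth1-low groups fitted (0.0739). Against untreated cells LPS Fth1-high was higher by 0.89 ± 0.19 (adjusted p = 0.00795), which without untreated replicate 1 was 0.76 (adjusted p = 0.0964). Pfkm stayed between 7.50 and 14.9 CPM in all libraries and was called in no comparison, except higher in LPS Fth1-high than in untreated cells by limma-voom (0.0417), with those 2 groups fitted alone (0.0445) and without LPS Fth1-low replicate 1 (0.0437).

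Aldolase cleaves fructose 1,6-bisphosphate. Aldoa, the form of most tissues, was 462 and 371 CPM in untreated Fth1-low, 507 and 708 in LPS Fth1-low, and 1864, 1985 and 2158 in LPS Fth1-high cells. The highest Fth1-low library was thus far below the lowest Fth1-high one, and the gate difference was 1.71 ± 0.25 (3.28-fold, adjusted p = 0.00331). Aldoc, the brain form, lay between 2.92 and 3.35 CPM in the 4 Fth1-low libraries and at 25.5, 15.2 and 20.3 in LPS Fth1-high. Its gate difference was 2.60 ± 0.36 (adjusted p = 0.00264), and without LPS Fth1-low replicate 2, which leaves a library with 2 counts of Aldoc in that group, it was 2.61 with adjusted p = 0.0578.

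Tpi1, which interconverts the triose phosphates, ranged from 118 to 249 CPM in the Fth1-low libraries and from 696 to 816 in LPS Fth1-high, with a gate difference of 1.84 ± 0.26 (adjusted p = 0.00301). Gpi1, the isomerase of glucose 6-phosphate, was like Pfkp and Pfkm not called between the LPS gates. It was 436 and 339 CPM in untreated Fth1-low, 214 and 426 in LPS Fth1-low, and 568, 664 and 607 in LPS Fth1-high cells. The LPS Fth1-low replicates were far apart, and no difference was called (0.91 ± 0.29 between the LPS gates, adjusted p = 0.100). With a library left out the gate difference ranged from 0.50 to 1.52, and DESeq2's Wald test called it at 0.89 (0.0115). It stayed uncalled in 13 of 16 alternatives. The 0.66 ± 0.29 over untreated cells (adjusted p = 0.132) was called with those 2 groups fitted alone (0.0292) or without LPS Fth1-low replicate 1 (0.0291) or 2 (0.0322).

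All 6 enzymes from glyceraldehyde 3-phosphate to lactate were higher in LPS Fth1-high than in LPS Fth1-low cells, and none of the 6 was called between the Fth1-low groups, nor reached an unadjusted p below 0.05 there (0 genes). Ldha, the lactate dehydrogenase subunit that favours lactate, was 238 and 205 CPM in untreated Fth1-low, 200.9 and 362 in LPS Fth1-low, and 736, 856 and 963 in LPS Fth1-high cells. Both Fth1-low groups overlapped, every Fth1-high library lay above them, and the gate difference was 1.57 ± 0.28 (2.98-fold, adjusted p = 0.00941). Pgam1, phosphoglycerate mutase, ranged from 67.7 to 105 CPM in the Fth1-low libraries and from 242 to 306 in LPS Fth1-high, a gate difference of 1.54 ± 0.22 (adjusted p = 0.00299).

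Pkm, pyruvate kinase, was 866 and 802 CPM in untreated Fth1-low, 795 and 1206 in LPS Fth1-low, and 2140, 2272 and 1978 in LPS Fth1-high cells. Its LPS Fth1-high libraries were all above the rest, with a gate difference of 1.09 ± 0.25 (adjusted p = 0.0272). Eno1, enolase, ranged from 222 to 302 CPM in the Fth1-low libraries and from 514 to 623 in LPS Fth1-high (1.02 ± 0.22, adjusted p = 0.0215). Pgk1, phosphoglycerate kinase, went from 24.9 to 38.5 CPM in the Fth1-low libraries to 56.4 to 72.7 in LPS Fth1-high (0.84 ± 0.21, adjusted p = 0.0352), and Gapdh from 26.2 to 38.5 to 63.4 to 110.0 (1.34 ± 0.27, adjusted p = 0.0161). The Pgk1 call was lost whichever library was left out, with adjusted p from 0.0607 without untreated replicate 1 to 0.131 without LPS Fth1-low replicate 2, and with the LPS libraries fitted alone (0.0675). That of Pkm was lost there (0.0651) and without any library but LPS Fth1-low replicate 2 (0.0534 to 0.0934), that of Eno1 without either LPS Fth1-low library (0.0917 and 0.0506, replicates 1 and 2) or without LPS Fth1-high replicate 2 (0.0672) or 3 (0.0871), and that of Gapdh without either LPS Fth1-low library (0.0652 and 0.123) or without LPS Fth1-high replicate 2 (0.0525). Against untreated cells, untreated replicate 2 decided the calls of Eno1 (1.10 ± 0.22, adjusted p = 0.00602, and 0.0832 without it) and Pkm (1.35 ± 0.25, adjusted p = 0.00377, and 0.0577 without it).

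The levels of several of these enzymes are uncertain, because processed copies of glycolytic genes are common in the mouse genome. In GENCODE vM21 transcripts (GRCm38), 81.8% of the 58-base windows of Gapdh, the read length used here, also occurred in transcripts of 175 other genes. The share was 70.1% for Eno1, 67.8% for Pgk1, 41.2% for Pgam1 and 29.1% for Pkm, and 10 of the 36 genes shared over 10%. How the authors counted reads that fit several genes is not given in the sources used here. At 6.61 ± 0.38 CPM per kb in untreated cells, Gapdh was listed below Pgam1, at 37.1 ± 4.20. Apart from copies, 17 of the 36 genes overlap a gene on the opposite strand and 5 one on the same strand, and the strand counted is not given in the sources used here.

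**Figure D2:**
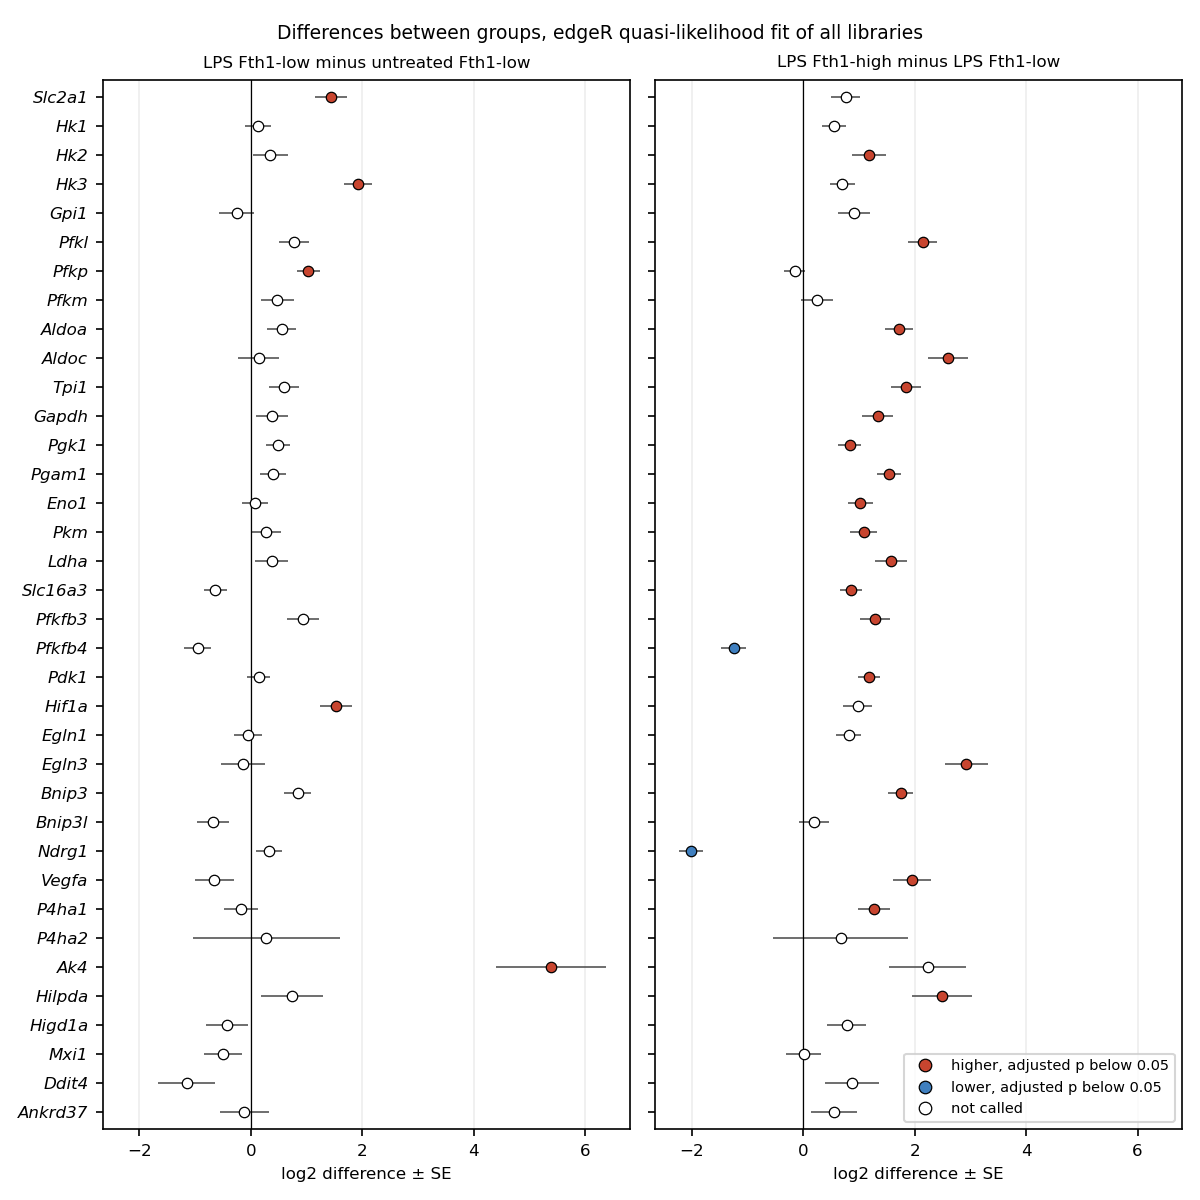
Log2 difference ± SE of each gene from the edgeR fit of all 7 libraries, LPS Fth1-low minus untreated Fth1-low on the left and LPS Fth1-high minus LPS Fth1-low on the right, with red points called higher, blue called lower and white not called. On the left 5 genes are red, Slc2a1, Hk3, Pfkp, Hif1a and Ak4, and on the right 19 are red and 2 are blue, Pfkfb4 and Ndrg1.

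Regulators of flux did not all move the same way. PFKFB enzymes make and break fructose 2,6-bisphosphate, the strongest activator of phosphofructokinase, and Pfkfb3, whose product mostly makes it, was 47.2 and 65.8 CPM in untreated Fth1-low, 114 and 104 in LPS Fth1-low, and 315, 285 and 194 in LPS Fth1-high cells. Pfkfb4, which also counts as a HIF target in other cells, was 144 and 141, 67.0 and 78.1, and 38.3, 25.8 and 29.2 CPM in the same order. The order of the groups was thus opposite for the pair, with no overlap between groups for either gene. Between the LPS gates Pfkfb3 was higher by 1.29 ± 0.27 (adjusted p = 0.018) and Pfkfb4 lower by a log2 difference of -1.25 ± 0.22 (adjusted p = 0.00849). Between the Fth1-low groups the differences of 0.94 ± 0.29 and -0.95 ± 0.24 were not called (adjusted p = 0.15 and 0.0766), while the DESeq2 Wald test called both (0.0332 and 0.0231). The gate call of Pfkfb3 ended without either LPS Fth1-low library (0.0733 and 0.101, replicates 1 and 2) and without LPS Fth1-high replicate 2 (0.0573), and that of Pfkfb4 without LPS Fth1-low replicate 2 (0.0716).

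Pdk1 encodes a kinase that shuts off pyruvate dehydrogenase and so keeps pyruvate out of the mitochondria. It was 32.8 and 30.5 CPM in untreated Fth1-low, 36.8 and 33.9 in LPS Fth1-low, and 87.9, 70.6 and 79.1 in LPS Fth1-high cells. The 4 Fth1-low libraries lay within a narrow band, and the gate difference was 1.18 ± 0.20 (adjusted p = 0.0072; 1.11 with adjusted p = 0.0505 without LPS Fth1-low replicate 2).

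Isoenzyme make-up, the share of each gene in the summed CPM per kb of its family, differed between the groups in some families and hardly in others. Pfkl held 47.2% and 41.4% of phosphofructokinase transcripts in untreated Fth1-low, 34.9% and 45.2% in LPS Fth1-low, and 76.3%, 75.6% and 78.5% in LPS Fth1-high cells. Pfkl thus held a minority of the family in each Fth1-low library and the majority in each LPS Fth1-high one. The exact permutation test, two-sided, gave p = 0.2 for the gate difference of 36.8 percentage points (adjusted p = 0.3957 over 93 such tests), the smallest value that 2 libraries against 3 allow. Shares are therefore given as a description.

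In the hexokinase family Hk3 made up 46.3% and 39.1% in untreated Fth1-low, 73.5% and 67.7% in LPS Fth1-low, and 67.3%, 67.6% and 62.1% in LPS Fth1-high cells. Pfkfb3 held 16.5% and 21.6% of the PFKFB transcripts in untreated Fth1-low, 47.7% and 42.0% in LPS Fth1-low, and 79.5%, 81.0% and 74.6% in LPS Fth1-high, while Pfkfb4 held 77.8% and 71.9%, 43.5% and 48.9%, and 11.4% to 17.4%. The shares of Hk3, Pfkfb3 and Pfkfb4 did not overlap between untreated and LPS Fth1-high libraries, while those of Pfkfb2, the remaining PFKFB gene counted, did. Most shares of all families compared did not overlap there either, so this marks no gene out. Other families hardly moved. Mean shares in untreated, LPS Fth1-low and LPS Fth1-high cells were 99.3%, 99.5% and 99.1% for Aldoa and 99.5%, 98.0% and 99.6% for P4ha1. Eno3, muscle enolase and no member of the 36, held 62.6% and 65.0% in untreated cells, 12.2% and 30.7% in LPS Fth1-low, and 4.9%, 3.8% and 5.9% in LPS Fth1-high. Its transcript was lower in LPS Fth1-low than in untreated cells by a log2 difference of -2.20 ± 0.43 (adjusted p = 0.0249), which was lost without untreated replicate 1 (0.12) or 2 (0.0792) or LPS Fth1-low replicate 1 (0.0654). Since reads of Eno1 may be divided among copies, the enolase shares carry that uncertainty. They also depend on the exon lengths. Without division by length the Eno3 share differed by -34.7 instead of -58.9 percentage points between LPS Fth1-high and untreated cells. The majority of Eno3 in untreated cells thus holds only per kb.

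**Figure D3:**
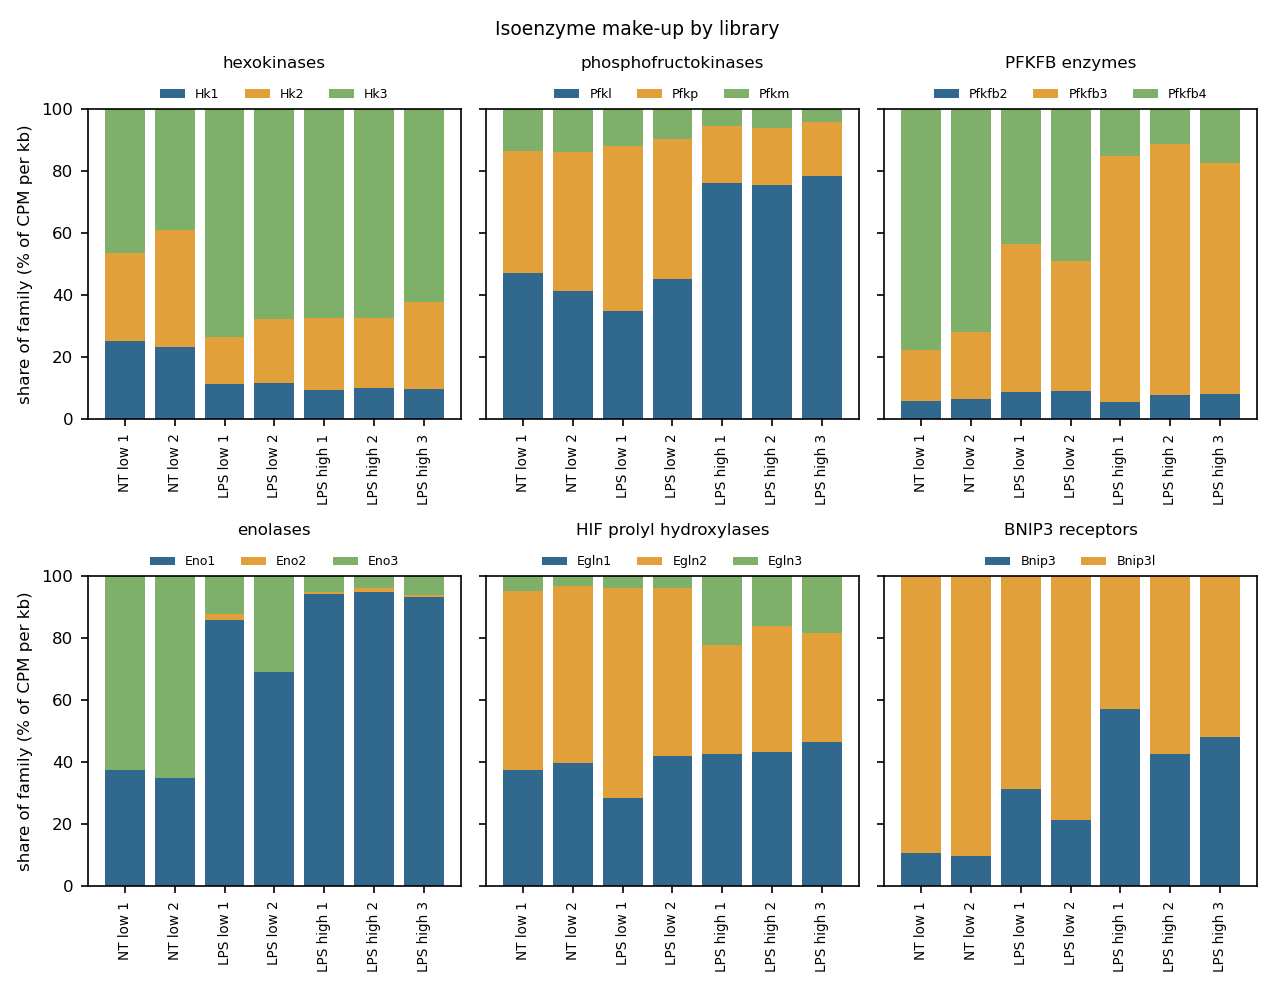
Stacked bars of isoenzyme shares in percent of the family's summed CPM per kb of exon, 1 bar per library (NT, untreated), for 6 families. Pfkl reaches 75.6% to 78.5% in LPS Fth1-high libraries against 34.9% to 47.2% elsewhere, and Hk3 exceeds 62% in all LPS libraries. Eno3 is over 62% in untreated libraries and under 6% in LPS Fth1-high, and its majority in untreated libraries holds only per kb.

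Hif1a itself was 106 and 125 CPM in untreated Fth1-low, 246 and 413 in LPS Fth1-low, and 751, 641 and 584 in LPS Fth1-high cells. The groups stood in that order without overlap. LPS Fth1-low exceeded untreated by 1.53 ± 0.29 (2.88-fold, adjusted p = 0.0182), a call lost without untreated replicate 1 (0.178) or 2 (0.118) or without LPS Fth1-low replicate 2 (1.07, adjusted p = 0.064). Between the LPS gates the difference of 0.98 ± 0.26 just missed the threshold (adjusted p = 0.0518). It passed under DESeq2 size factors (0.0472), upper quartile scaling (0.0331), no filter (0.0368) and a stricter filter (0.0457). The DESeq2 Wald test (0.00216) and limma-voom (0.0378) called it too. It stayed uncalled in 8 of 16 alternatives. With a library left out it ranged from 0.65 to 1.43, the highest value without LPS Fth1-low replicate 2.

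Egln3 encodes PHD3, a HIF prolyl hydroxylase that is itself a HIF target. Its level was 4.71 and 2.80 CPM in untreated Fth1-low, 3.35 and 3.50 in LPS Fth1-low, and 32.8, 20.1 and 26.8 in LPS Fth1-high cells. The Fth1-low groups overlapped at a low level and each Fth1-high library was several times higher, a gate difference of 2.93 ± 0.39 (7.62-fold, adjusted p = 0.00212; 2.99 with adjusted p = 0.0609 without LPS Fth1-low replicate 2). Its share of the hydroxylase family was 3.0% to 4.9% in the Fth1-low libraries and 22.3%, 15.9% and 18.3% in LPS Fth1-high.

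Egln1, the main oxygen sensor PHD2, was 49.2 and 49.3 CPM in untreated Fth1-low, 35.2 and 54.5 in LPS Fth1-low, and 84.7, 73.7 and 92.5 in LPS Fth1-high cells. The Fth1-high libraries were the highest, but the gate difference of 0.82 ± 0.23 was not called (adjusted p = 0.0608). It was called with upper quartile scaling (0.045) and by DESeq2's Wald test (0.0378). Egln1 stayed uncalled there in 13 of 16 alternatives, and ranged from 0.60 to 1.26 with a library left out. Its call against untreated cells (0.76 ± 0.21, adjusted p = 0.0284) was lost without either untreated library (0.149 and 0.143 without replicate 1 and 2) and without LPS Fth1-high replicate 1 (0.056), 2 (0.0506) or 3 (0.0996).

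**Figure D4:**
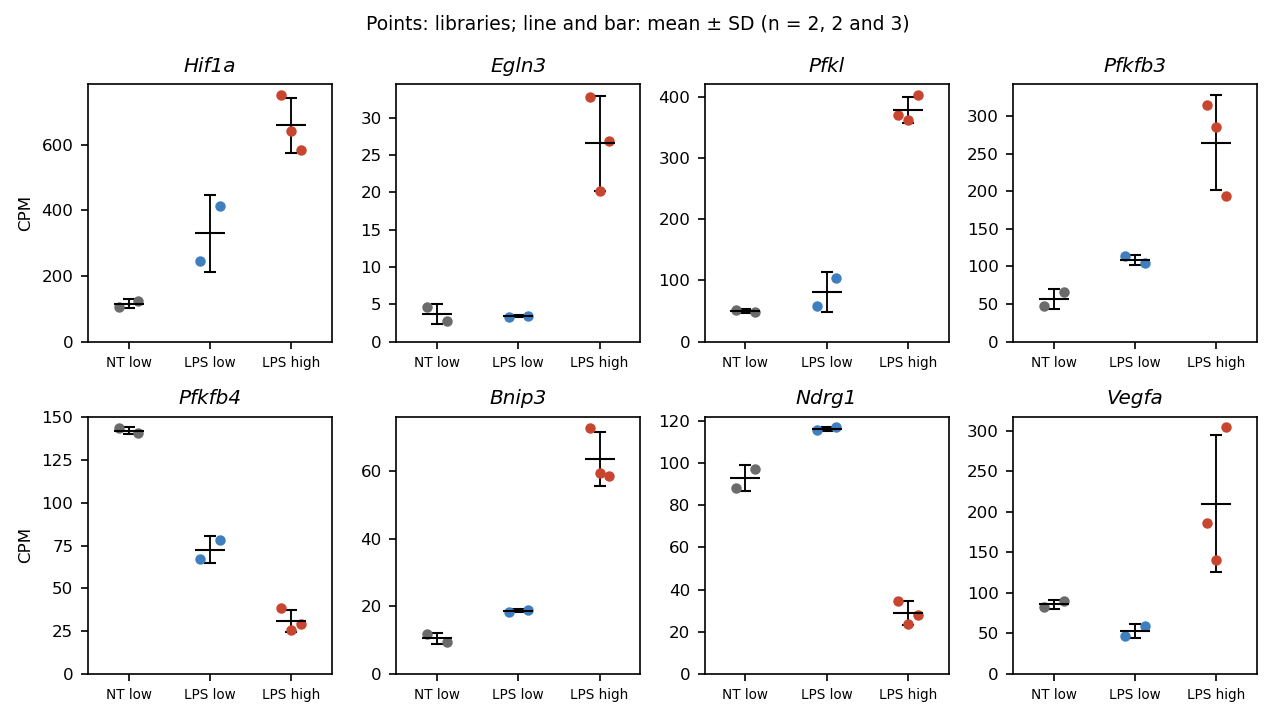
CPM in each library (points) with group mean ± SD (line and bar; n = 2, 2 and 3) for 8 genes, each panel on its own linear axis from 0 (NT, untreated). Egln3 and Pfkl separate LPS Fth1-high libraries from all others, Hif1a is lowest in untreated and highest in LPS Fth1-high libraries, Pfkfb3 and Pfkfb4 have opposite orders, and Ndrg1 is lowest in LPS Fth1-high, at 23.7 to 34.7 CPM.

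A smaller part of the 12 HIF targets than of the enzymes was called. Between the LPS gates the widest SE was 1.21 among the targets (P4ha2) and 0.36 among the enzymes (Aldoc). The part of expression level in this contrast was not tested. Of the 12 targets 4 were higher between these gates (Bnip3, Vegfa, P4ha1 and Hilpda), 1 was lower (Ndrg1) and 7 were not called. Of the 16 glycolytic enzymes 11 were higher and 0 lower. At an unadjusted p below 0.05 the targets had 5 upward and 1 downward, and the enzymes 14 and 0. Of the 12 target differences 11 were positive (median 0.83). Of the 16 enzyme differences 15 were (median 1.13), against 7194 of all 13665 tested genes between these gates. Of all tested genes 3.68% were called higher and 4.57% lower there, and 10.9% and 10.8% had an unadjusted p below 0.05 in those directions. Bnip3 encodes a mitophagy receptor of the outer mitochondrial membrane. It was 11.7 and 9.32 CPM in untreated Fth1-low, 18.4 and 19.0 in LPS Fth1-low, and 72.8, 59.3 and 58.5 in LPS Fth1-high cells. The groups stood in that order without overlap, with a gate difference of 1.75 ± 0.23 (3.36-fold, adjusted p = 0.00186) and a difference of 0.84 ± 0.24 between the Fth1-low groups that was not called (adjusted p = 0.113).

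Its relative Bnip3l, which encodes the mitophagy receptor NIX, was 168 and 146 CPM in untreated Fth1-low, 68.6 and 119 in LPS Fth1-low, and 92.2, 137 and 107 in LPS Fth1-high cells. The untreated libraries were the highest, and no difference was called (0.19 ± 0.27 between the LPS gates, adjusted p = 0.743). Bnip3 therefore made up 10.6% and 9.8% of the pair per kb in untreated Fth1-low, 31.4% and 21.4% in LPS Fth1-low and 57.3%, 42.5% and 48.2% in LPS Fth1-high cells.

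Ndrg1, a HIF-induced gene of many cell types, went the other way. It was 88.3 and 97.0 CPM in untreated Fth1-low, 116 and 117 in LPS Fth1-low, and 34.7, 23.7 and 28.1 in LPS Fth1-high cells. The LPS Fth1-high libraries lay below every other one, with a gate difference of -2.01 ± 0.21 (adjusted p = 6.0e-04) and a difference from untreated cells of -1.69 ± 0.20 (adjusted p = 3.1e-04).

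Vegfa, the angiogenic growth factor, was 82.1 and 89.5 CPM in untreated Fth1-low, 46.9 and 59.1 in LPS Fth1-low, and 186, 141 and 304 in LPS Fth1-high cells. The LPS Fth1-low libraries were the lowest, the Fth1-high libraries were spread over a wide range above all others, and the gate difference was 1.95 ± 0.34 (adjusted p = 0.00806). It was not called without LPS Fth1-low replicate 1 (0.0702) or 2 (0.0584), and the rise of 1.29 ± 0.31 over untreated cells (adjusted p = 0.0151) not without untreated replicate 1 (0.108) or 2 (0.0807).

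Hilpda encodes a lipid droplet protein that inhibits adipose triglyceride lipase. It was 8.70 and 3.36 CPM in untreated Fth1-low, 1.67 and 12.4 in LPS Fth1-low, and 40.7, 60.9 and 73.3 in LPS Fth1-high cells. The Fth1-low groups overlapped, the value of 1.67 was a single count, and the gate difference was 2.49 ± 0.54 (adjusted p = 0.0233). It was 2.21 without LPS Fth1-low replicate 1 (adjusted p = 0.073), 5.13 without replicate 2 (0.0652), and also lost its call without LPS Fth1-high replicate 2 (0.0613) or 3 (0.0676) or without a filter (0.0792). P4ha1, a collagen prolyl hydroxylase subunit, ranged from 55.2 to 105 CPM in the Fth1-low libraries and from 165 to 228 in LPS Fth1-high. Its gate difference of 1.27 ± 0.29 (adjusted p = 0.0252) ended without replicate 1 of LPS Fth1-low (0.105) and without replicate 1 (0.0505) or 3 (0.0796) of LPS Fth1-high, and that against untreated cells (1.09 ± 0.28, adjusted p = 0.0179) without untreated replicate 1 (0.151) or 2 (0.061) and without replicate 3 of LPS Fth1-high (0.06).

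Ak4, a mitochondrial adenylate kinase, was near 0 before LPS, with 1 count in each untreated library. It was 8.37 and 1.59 CPM in LPS Fth1-low and 15.9, 8.82 and 14.2 in LPS Fth1-high cells, so every LPS library lay above the untreated ones. On pooled counts LPS Fth1-low was 31.2 times untreated (95% interval 8.03 to 267) and LPS Fth1-high 219.5 times (60.6 to 1816), intervals that cover counting error only. Both differences were called (adjusted p = 0.0164 and 2.0e-04), the first not without untreated replicate 1 (0.179) or 2 (0.0774) and not by limma-voom (0.191). The difference between the LPS gates, 2.24 ± 0.69, was not called (adjusted p = 0.0873). It stayed uncalled in 12 of 16 alternatives, but was called without a filter (0.042) and by limma-voom (0.0109). With a library left out it ranged from 0.64 to 3.00, the highest value without LPS Fth1-low replicate 1.

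Besides Bnip3l, 5 more targets were called in no comparison. Mxi1, a MYC antagonist, Ddit4, the mTORC1 inhibitor REDD1, Higd1a, a mitochondrial protein, and Ankrd37 ranged from 21.8 to 73.2, 18.4 to 60.8, 5.02 to 21.1 and 4.17 to 7.81 CPM over the 7 libraries, with the groups overlapping in at least 1 comparison for each. P4ha2, the other collagen hydroxylase subunit, stayed under 3.4 CPM and had 2 counts in LPS Fth1-low replicate 1. Without LPS Fth1-low replicate 2, Mxi1 was called lower in LPS Fth1-low than in untreated cells (-1.65, adjusted p = 0.04) and in LPS Fth1-high than in untreated cells (-0.50, adjusted p = 0.0411), the latter also with those 2 groups fitted alone (-0.49, adjusted p = 0.0451).

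HIF dimers bind a short core, ACGTG or GCGTG, and the 250 bases before each gene's start were searched for both on both strands, in RefSeq promoter windows of GRCm38.p6. Of the 36 genes 34 had a window, all but Bnip3l and Ndrg1. Where a member had several, the window nearest its GENCODE gene start was taken. For the tested genes it was the first listed, so these shares rest on unlike choices. The RefSeq start lay 6492 bases from the GENCODE start for Hif1a and 5857 for Ankrd37. A core was present in 26 of the 34 (76.5%), against 55.7% of 10407 windows of tested genes and 38.6% of all 32851 windows. ACGTG alone was in 17 of the 34 (50.0%, against 21.5% and 16.6%), and GCGTG in 17 (50.0%, against 44.6% and 28.2%). The members' windows had a median G+C content of 62.8%, against 59.6% for tested genes and 52.4% for all windows, and its part in these shares was not tested. Genes called and not called held cores at a like rate: 19 of 25 genes higher in LPS Fth1-high than in untreated cells had one, and so did 6 of the 8 not called. CACGTG, an E-box bound by other factors too, holds ACGTG on both strands and was in 4 of the 34 (11.8%, against 8.28% and 6.02%).

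Windows of 5 genes whose transcript was higher in LPS Fth1-high cells than in both other groups are printed here, to show how their cores differ, each on the gene's own strand with cores on either strand in capitals (CACGT and CACGC are the cores of the other strand). Bnip3 (GRCm38.p6, chr7:138909520-138909756, minus strand) has 2 ACGTG and 3 GCGTG. Ldha (chr7:46845554-46845803, plus strand, before a RefSeq start 4329 bases from the GENCODE gene start) has 5 ACGTG, 4 of them in 2 E-boxes. Pdk1 (chr2:71872974-71873223, plus strand) has 1 GCGTG that starts 78 bases before the gene, and Egln3 (chr12:54203875-54204124, minus strand) 1 ACGTG at 229 bases. Hilpda (chr6:29272238-29272487, plus strand) has neither in this window.
Bnip3: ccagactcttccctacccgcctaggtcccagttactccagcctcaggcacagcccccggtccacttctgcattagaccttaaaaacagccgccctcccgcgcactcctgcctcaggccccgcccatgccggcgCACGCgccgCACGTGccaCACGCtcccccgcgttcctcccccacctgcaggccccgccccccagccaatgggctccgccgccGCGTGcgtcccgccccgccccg
Ldha: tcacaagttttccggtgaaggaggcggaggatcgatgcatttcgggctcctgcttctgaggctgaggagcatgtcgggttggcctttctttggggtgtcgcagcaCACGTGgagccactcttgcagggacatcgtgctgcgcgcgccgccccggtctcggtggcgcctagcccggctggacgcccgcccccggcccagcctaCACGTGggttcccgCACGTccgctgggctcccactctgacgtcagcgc
Pdk1: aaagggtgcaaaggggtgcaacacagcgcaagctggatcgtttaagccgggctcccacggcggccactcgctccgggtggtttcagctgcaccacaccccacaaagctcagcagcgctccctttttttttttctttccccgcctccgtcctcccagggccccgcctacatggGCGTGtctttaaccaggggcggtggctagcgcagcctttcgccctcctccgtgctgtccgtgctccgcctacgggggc
Egln3: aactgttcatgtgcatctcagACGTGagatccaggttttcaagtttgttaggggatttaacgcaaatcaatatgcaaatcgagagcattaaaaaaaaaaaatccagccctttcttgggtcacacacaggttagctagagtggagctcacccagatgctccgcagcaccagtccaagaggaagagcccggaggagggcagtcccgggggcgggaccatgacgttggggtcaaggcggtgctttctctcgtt
Hilpda: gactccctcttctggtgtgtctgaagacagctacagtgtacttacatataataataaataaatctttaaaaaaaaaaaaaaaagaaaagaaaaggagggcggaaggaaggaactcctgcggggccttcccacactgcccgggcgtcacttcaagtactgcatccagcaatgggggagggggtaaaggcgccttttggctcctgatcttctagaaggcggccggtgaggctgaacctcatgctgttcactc
All of these bases lie before the RefSeq start, and the Bnip3 stretch stops short of an exon annotated in GENCODE vM21. A match here is a run of letters and not a measured binding site.

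Genes of the pathways around glycolysis were counted for comparison. Between the LPS gates 3.68% of all tested genes were called higher and 4.57% lower (10.9% and 10.8% at an unadjusted p below 0.05). Of 16 other tested genes of glucose transport and glycolysis, 0 were higher and 2 lower in LPS Fth1-high than in LPS Fth1-low cells (3 and 2 at an unadjusted p below 0.05, 0 and 2 by the DESeq2 Wald test, 1 and 2 by limma-voom). The 2 were Eno3 (-1.76 ± 0.39, adjusted p = 0.0223) and Slc2a6, a lysosomal glucose transporter of macrophages (-0.78 ± 0.18, adjusted p = 0.0289). The Eno3 value was -0.29 (adjusted p = 0.809) without LPS Fth1-low replicate 2, and its call was also lost without LPS Fth1-high replicate 2 (0.0683). That of Slc2a6 ended without replicate 2 of untreated (0.0538) or of LPS Fth1-low cells (0.0677), and without replicate 1 (0.0615), 2 (0.0995) or 3 (0.136) of LPS Fth1-high.

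None of 12 tested genes for the entry of pyruvate into mitochondria was called between the LPS gates (0; 1 higher and 0 lower at an unadjusted p below 0.05, 0 by DESeq2 and by limma-voom). Of 8 genes of the pentose phosphate pathway 1 was higher, H6pd, the enzyme of the endoplasmic reticulum, at 221, 222 and 155 CPM in LPS Fth1-high against 48.6 and 76.8 in LPS Fth1-low (1.60 ± 0.27, adjusted p = 0.00681). None was lower in that test (0), while the DESeq2 Wald test and limma-voom each called 1 lower, Taldo1. Of all tested genes 3.68% were called higher and 4.57% lower between these gates. Against untreated cells H6pd was higher in LPS Fth1-high too (1.43 ± 0.26, adjusted p = 0.0032). The cytosolic enzymes Taldo1 (-1.12 ± 0.20, adjusted p = 0.00344), Tkt (-0.999 ± 0.23, adjusted p = 0.0116) and G6pdx (-0.68 ± 0.19, adjusted p = 0.0289) were lower. Of the 8 differences 3 were positive and 5 negative. Pgd, not called, was 412 and 324 CPM in untreated and 497, 562 and 505 in LPS Fth1-high cells. In that comparison 12.4% of all tested genes were called higher and 11.9% lower. Tkt was not called without untreated replicate 1 (0.0918) or 2 (0.0566), nor G6pdx without any 1 of the untreated or LPS Fth1-high libraries (0.0665 to 0.152).

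Glycogen genes included a large difference in Gys1, glycogen synthase and a known HIF target. It was 8.2 and 7.0 CPM in untreated Fth1-low, 15.1 and 15.5 in LPS Fth1-low, and 75.3, 55.0 and 49.1 in LPS Fth1-high cells, with a gate difference of 1.96 ± 0.27 (adjusted p = 0.00244). Its groups did not overlap. Of 13 glycogen genes 2 were higher and 1 lower between the LPS gates, and 0 were called between the Fth1-low groups (2 higher and 1 lower at an unadjusted p below 0.05, 0 by DESeq2 and limma-voom). Of all tested genes 3.68% were higher and 4.57% lower between the LPS gates. Between the Fth1-low groups the unadjusted shares were 7.81% and 5.58%, so that the lower count there is near the background.

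Of 36 other tested genes of the HIF pathway and its targets, Gys1 among them, 6 were higher and 0 lower between the LPS gates (13 and 0 at an unadjusted p below 0.05, 8 and 0 by the DESeq2 Wald test, 5 and 0 by limma-voom). Between the Fth1-low groups 4 were higher and 0 lower, and between LPS Fth1-high and untreated cells 13 and 1. The shares of all tested genes were 3.68% and 4.57% between the LPS gates (10.9% and 10.8% unadjusted), 2.99% and 0.629% between the Fth1-low groups, and 12.4% and 11.9% against untreated cells. Mif, a cytokine, was 8.9 and 8.1 CPM in untreated Fth1-low, 48.6 and 21.7 in LPS Fth1-low, and 112, 99.1 and 147 in LPS Fth1-high cells. It was called at both steps (1.82 ± 0.37, adjusted p = 0.0291, between the Fth1-low groups, and 1.99 ± 0.35, adjusted p = 0.00836, between the LPS gates). The first call was lost without untreated replicate 1 (0.153) or 2 (0.172) or LPS Fth1-low replicate 1 (1.38, adjusted p = 0.0545) and by limma-voom (1.45, adjusted p = 0.0521), and the second without LPS Fth1-low replicate 2 (1.31, adjusted p = 0.0594).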

How the data were processed

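The deposited values are whole-number counts per gene and library. Per the submitters' processing notes, the pipeline names DRAGEN, DESeq2 and the build mm10. Nothing on versions, annotation, strand or filters is given in the sources used here. Per the labels' protocols, libraries were made from 25 ng of polyadenylated RNA with a stranded kit and 15 PCR cycles, and were read for 58 bp from both ends. The labels do not say whether replicates were separate mice, so p-values reflect the spread from library to library, which may be technical. No sample column was left unused (0).

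The tools were R 4.3.3 and edgeR 4.0.16. After filterByExpr (13665 genes kept) and TMM scaling, a quasi-likelihood model with 3 groups was fitted robustly to the 7 libraries together. It had 4 residual and a median of 5.38 prior degrees of freedom, with a biological coefficient of variation of 0.301. Pairwise differences were tested two-sided, adjusted by Benjamini-Hochberg over all tested genes and called below 0.05. The standard error is the log2 difference over the square root of F. The script was tested on simulated data. Depth ran from 637787 to 27997007 counts. Isoenzyme shares used CPM per kb of GENCODE vM21 exon. Ratios to 1 to 3 counts carry a 95% interval for counting error only.

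The members, the role and pathway lists and the marker lists were chosen with earlier results of these data known. The rule named all 36 members, and up to 4 called genes of each pathway list by smallest adjusted p, of which only some are named. Alternatives were other scalings and filters, DESeq2 1.42.0, limma-voom (limma 3.58.1), fits of 2 groups, each library left out, the replicate number as a block, ribosomal RNA and mitochondrial genes left out, and shares of CPM not divided by exon length.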

Additional observations from a re-analysis of the deposited data

How the results depend on the processing

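No member's called difference changed sign under any alternative run. Over the alternatives, 503 of 576 values between the LPS gates kept their side of the threshold, 54 lost a call and 19 gained one. For LPS Fth1-low against untreated the numbers were 556, 15 and 5, and for LPS Fth1-high against untreated 546, 22 and 8. Calls that no alternative ended numbered 7 of 21 between the LPS gates (Pfkl, Aldoa, Tpi1, Pgam1, Ldha, Bnip3 and Ndrg1), 1 of 5 (Hk3) and 19 of 27.

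Members called between the LPS gates numbered 19 higher and 2 lower, and with a library left out 10 to 16 and 1 to 2. The lowest count, 10, came without LPS Fth1-low replicate 1, and the count was 12 without its replicate 2 and 11 and 12 without LPS Fth1-high replicates 2 and 3. Without LPS Fth1-low replicate 2 the median of all genes shifted to 0.28 between the LPS gates and to -0.27 between the Fth1-low groups. Between the Fth1-low groups the counts were 1 to 5 higher and 0 to 1 lower with a library left out: 1 higher without untreated replicate 1, and 2 without replicate 2 of either group. There 1 gene was lower by the DESeq2 Wald test (Pfkfb4), 1 without LPS Fth1-low replicate 2 (Mxi1) and 1 with the replicate number as a block (Ddit4). For LPS Fth1-high against untreated the counts were 19 to 27 higher and 2 to 3 lower. The cause of these changes was not tested, but leaving out a library leaves fewer samples.

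Without division by exon length the Pfkfb3 share differed by 29.0 instead of 33.5 percentage points between the LPS gates, and the Eno3 share by -27.9 instead of -42.4 between the Fth1-low groups. With a library left out, the gate differences in share ranged from 31.6 to 41.9 (Pfkl), 30.7 to 36.4 (Pfkfb3), 13.4 to 16.6 (Egln3) and 18.0 to 28.0 (Bnip3) points, and those between the Fth1-low groups from 24.3 to 31.5 (Hk3) and -51.7 to -33.1 (Eno3).

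The deviations of same-numbered replicates from their group means had correlations from -0.04 to 0.29, and of 0.27 and 0.09 between the LPS gates. In a group of 2 libraries the deviations mirror each other. These values therefore cannot decide whether the numbers pair the libraries. With the replicate number as a block, 20 members were higher and 2 lower between the LPS gates, 5 and 1 between the Fth1-low groups, and 23 and 2 for LPS Fth1-high against untreated. Between the LPS gates the block ended the calls of Slc16a3 (adjusted p = 0.0672) and Pgk1 (0.141) and started those of Hif1a (0.0142), Ak4 (0.027) and Gpi1 (0.0435). Against untreated cells it ended those of Hk1 (0.0564) and Egln1 (0.106) in LPS Fth1-high. Outside the 36, Slc2a6 (0.154, between the gates) and G6pdx (0.134, against untreated) also lost theirs. Depth limits the low genes most: in LPS Fth1-low replicate 1, Hilpda rests on 1 count and Aldoc, Egln3 and P4ha2 on 2 each.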
